A study of Mus musculus with 36 samples.

Results

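Genes that drive the cell division cycle and copy the DNA were followed in mouse kidney across 5 dietary interventions. The 55 genes form a list that runs from entry into G1 through DNA replication and nucleotide supply to mitosis and cytokinesis. A gene was measured when an array probe set carried its symbol and no other, and this held for 54 of the 55 genes through 100 probe sets, out of 17097 genes and 28898 probe sets named in this way among 45141 in all. Ccnb1 had no such probe set here, 23 genes had 1 probe set each and 31 had 2 to 5. Where a gene had several, the probe set brightest on average across the arrays stood for it.

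The 36 kidneys came from male C57BL/6 mice aged 10 to 12 weeks, all kept on SDS chow for 7 days first. The arrays fall into 2 sets by hybridization date and normalisation, and each set is called an experiment here. The paper describes fasting and 30% dietary restriction as individual cohorts, each with its own control group. The second set may therefore hold more than 1 feeding cohort. In the first experiment 4 mice were fasted for 3 days and 5 stayed on SDS chow. In a second, 5 mice received 30% dietary restriction for 2 weeks (2-week 30%DR) against 3 mice on SDS chow, and 5 mice on a purified Control diet were set against mice fed for 3 days on a protein-free diet (n = 5), a carbohydrate-free (CHO-free) diet (n = 5) or a fat-free diet (n = 4). The Control diet differed from the chow in its protein source and, by the composition the paper gives, also in carbohydrate, fat, fibre and energy content. In the protein-free diet carbohydrate took the place of protein, and in the CHO-free diet protein took that of carbohydrate, as the paper states. By the same composition the fat-free diet held more protein than the Control diet. The paper also reports a loss of body weight and a lower energy intake, not significant in its test, on the protein-free diet. Here "without protein" and "without carbohydrate" name these diets, and the part of any single nutrient was not tested. The 3 macronutrient-free diets share the Control mice as their reference. Each array holds 1 kidney of 1 mouse. Outlying arrays of the fasted mice, the fat-free mice and the SDS chow controls of 30%DR had been left out by the authors and are not analysed here. For the chow controls of 30%DR the paper counts 4 arrays, and 3 were analysed here. All values are log2 signals from Affymetrix arrays normalised by robust multichip average (RMA), and a log2 difference of 1 is a doubling of signal. "Called" means a false discovery rate (FDR) under 0.05 over all 45141 probe sets together with a fold change of at least 1.5.

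Dividing cells need their genes in sequence. Cyclin D and cyclin E with their kinases commit a cell in G1, the MCM helicase and its loaders Cdc6 and Cdt1 license and open replication origins, and ribonucleotide reductase and thymidine kinase supply deoxynucleotides. Cyclins A and B with CDK1 then bring the cell into mitosis, the aurora and polo kinases and the kinesins build the spindle, and the anaphase-promoting complex ends mitosis by marking cyclins for breakdown. Most cells of the adult kidney rest outside the cycle, and the tubule epithelium is known for returning to division after injury. In whole kidney, fewer cells in cycle and less RNA per cell cannot be told apart.

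Array medians ran from 4.15 to 4.21 in the fasting experiment and from 3.62 to 3.76 in the second, with 1 Control mouse (replicate 4) at the lower end and the next array at 3.70. The 2 experiments were hybridized and normalised apart, so levels are compared only within each. Markers of kidney tubule and podocyte (7 of 10 measured) had mean values of 9.42 to 9.99 per array. The gap between the 3' and 5' Gapdh probe sets, a measure of RNA integrity, was 1.85 ± 0.62 (SD, n = 5) on the CHO-free diet against 0.82 ± 0.14 (SD, n = 5) on the Control diet, and 1.34 ± 0.59 (SD, n = 5) on the protein-free diet. By a 2-sided exact permutation test the first difference had p = 0.00794 (0.0476 adjusted over 6 comparisons) and the second p = 0.111 (0.167 adjusted). The Control diet had the lowest mean gap of the 8 groups, with 1.27 ± 0.37 (SD, n = 4) on the fat-free diet (exact p = 0.0238, 0.0714 adjusted) and 1.27 ± 0.41 (SD, n = 3) on the SDS chow of the same experiment (exact p = 0.0536, 0.107 adjusted) set against it.

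The protein-free diet was the intervention with the most called genes in one direction. Of the 54 genes, 13 were called lower and 0 higher, that is 24.1% of the genes against 0.288% of all probe sets called lower (0.45% were called higher). Counted by probe set, 13 of the 100 of these genes were called lower. The 13 genes were Rrm2, Tk1, Cdk1, Ccna2, Ccnb2, Mki67, Top2a, Pbk, Birc5, Ube2c, Cdca3, Nusap1 and Hmmr. The median log2 fold change over the 54 genes was -0.20, against 0.01 over all probe sets, and 49 of the 54 were below zero (47.0% of all probe sets). In each of the 13, which were picked by this same comparison, all 5 protein-free mice lay below all 5 Control mice, as they did in 1.48% of all probe sets.

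**Figure D1:**
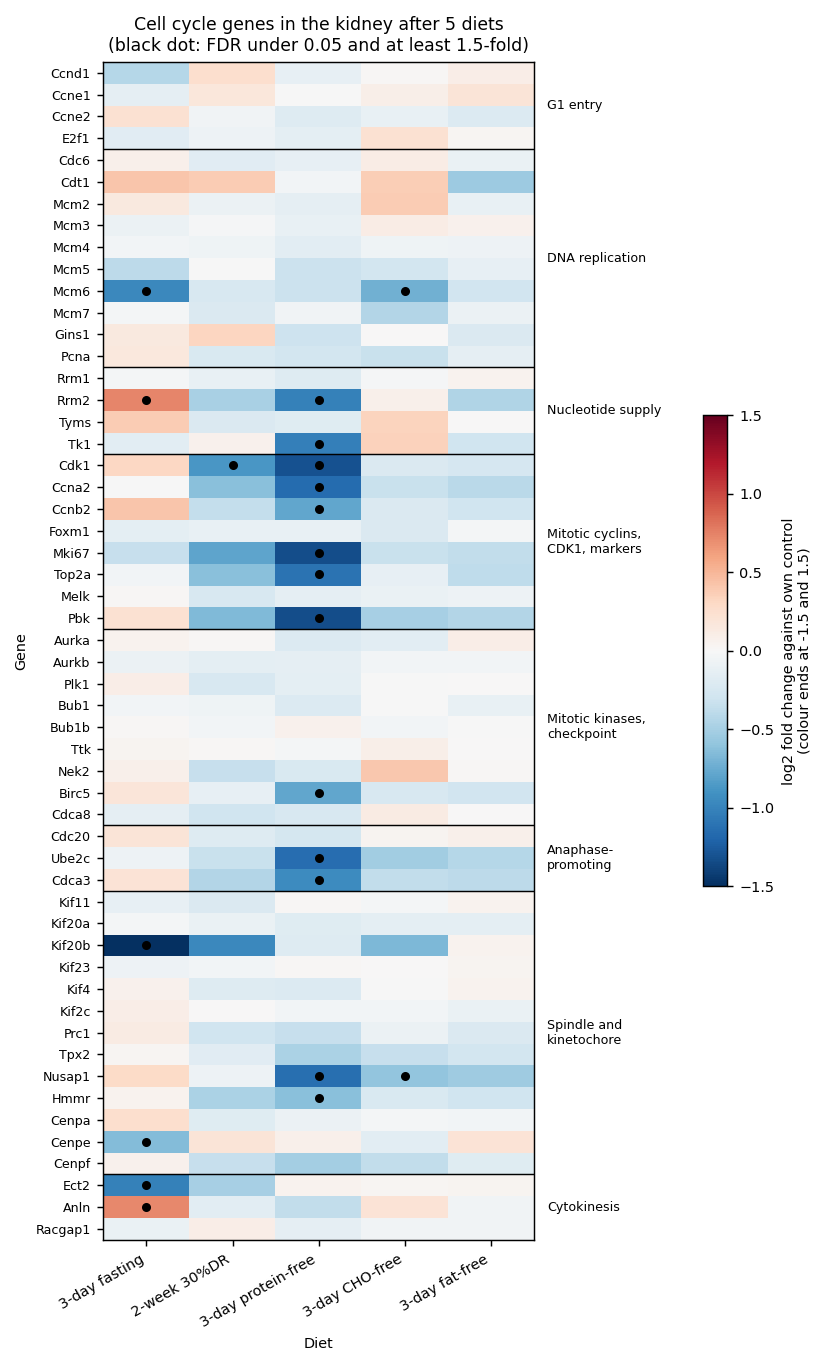
Log2 fold change of the 54 measured cell cycle genes (rows, grouped by role) in each of the 5 diets against its own control (columns), with blue for lower and red for higher and black dots for called genes. The protein-free column holds 13 dots, all blue, and the fasting column holds 6, of which 4 are blue, with Kif20b at -3.38 beyond the end of the colour scale.

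The fall was densest among the mitotic cyclins, CDK1 and the markers of dividing cells, where 6 of 8 measured genes were called lower with a group median of -1.13. Mki67 encodes the Ki-67 antigen, the standard marker of cells in cycle, and read 3.08, 3.25, 3.43, 3.51 and 3.56 in the 5 protein-free mice and 4.21, 4.41, 4.59, 5.07 and 5.18 in the 5 Control mice. Its log2 fold change was -1.33 (SE 0.19, adjusted p = 0.00022). The topmost protein-free mouse stayed below the lowest Control mouse by more than the spread of the protein-free group.

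Pbk, a kinase made in mitotic cells, read 3.55, 3.59, 3.61, 3.80 and 3.85 on the protein-free diet and 4.36, 4.79, 5.08, 5.21 and 5.61 on the Control diet. This was the largest fall of the 54 genes in this comparison, at -1.33 (SE 0.17, adjusted p = 7.10e-05), a 2.52-fold lower signal. Cdk1, the kinase that triggers mitosis, read 3.05, 3.12, 3.18, 3.27 and 3.42 against 3.89, 4.29, 4.59, 4.82 and 4.96, with -1.30 (SE 0.17, adjusted p = 7.10e-05). In both genes the Control mice spread over more than a log2 unit while the protein-free mice lay close together. Over the 13 called genes the protein-free means were 2.80 to 3.68, where array medians ran from 3.62 to 3.76. Values are compressed in this dim range, and its part in the narrow spread was not tested.

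Top2a encodes the topoisomerase that untangles sister chromatids. It read 2.74, 2.88, 2.91, 2.96 and 3.04 in the protein-free mice and 3.45, 3.98, 4.09, 4.11 and 4.42 in the Control mice, -1.10 (SE 0.15, adjusted p = 0.000118). Its 2 other probe sets had -0.27 and 0.02 and were not called, so the fall of Top2a rests on 1 of 3 probe sets. The partners of CDK1 fell as well: Ccna2, cyclin A2, had -1.15 (SE 0.21, adjusted p = 0.00332), with -0.51 on its second probe set (adjusted p = 0.0456, under the fold minimum). Ccnb2, cyclin B2, had -0.78 (SE 0.14, adjusted p = 0.00337). The 2 genes of this group that were not called were Foxm1, a transcription factor of mitotic genes, at -0.11, and the kinase gene Melk at -0.14.

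Cell cycle promoters are known for 3 short elements, and promoters of 3 of the fallen genes are shown to let a reader see them. The cell cycle genes homology region (TTTGAA or TTCGAA) binds the DREAM and MuvB complexes, the CCAAT box binds NF-Y, and the E2F site was searched as TTTGGCGC, TTTCCCGC, TTTCGCGC or TTTGCCGC, all on both strands. RefSeq promoters (build GRCm38.p6, from 250 bases before to 50 bases after the start, 300 bases each) were found for 45 of the 55 genes through 48 entries. Capitals mark every match, and the start of transcription falls after base 250. The promoters lie at chr10:69352863-69353162, minus strand (Cdk1), chr9:70421505-70421804, minus strand (Ccnb2) and chr11:99024140-99024439, minus strand (Top2a).
Cdk1: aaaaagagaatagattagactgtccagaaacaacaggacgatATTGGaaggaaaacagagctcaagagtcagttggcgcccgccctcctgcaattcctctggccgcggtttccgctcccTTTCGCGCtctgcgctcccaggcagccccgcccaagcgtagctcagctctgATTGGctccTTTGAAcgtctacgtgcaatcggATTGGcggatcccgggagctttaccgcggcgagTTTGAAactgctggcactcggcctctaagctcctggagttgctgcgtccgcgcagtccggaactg
Ccnb2: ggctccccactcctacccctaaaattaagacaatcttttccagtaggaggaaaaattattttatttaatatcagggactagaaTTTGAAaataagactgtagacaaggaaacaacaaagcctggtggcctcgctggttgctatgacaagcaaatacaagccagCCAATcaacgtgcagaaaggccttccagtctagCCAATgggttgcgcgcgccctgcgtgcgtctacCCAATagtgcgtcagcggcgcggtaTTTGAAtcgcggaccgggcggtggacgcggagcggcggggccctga
Top2a: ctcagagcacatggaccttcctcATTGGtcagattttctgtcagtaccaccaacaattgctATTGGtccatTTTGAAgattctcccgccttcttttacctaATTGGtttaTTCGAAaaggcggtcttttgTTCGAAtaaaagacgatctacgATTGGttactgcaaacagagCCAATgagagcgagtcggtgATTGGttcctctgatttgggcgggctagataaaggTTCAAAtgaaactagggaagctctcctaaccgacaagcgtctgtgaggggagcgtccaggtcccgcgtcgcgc

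The Cdk1 promoter holds all 3 elements, with homology regions starting at -71 and -15, CCAAT boxes at -208, -80 and -48 and an E2F site at -131. Ccnb2 has homology regions at -167 and 5 and CCAAT boxes at -87, -54 and -21. Top2a has 4 homology regions and 6 CCAAT boxes. Over the list, the homology region was found in 29 of 48 promoters (60.4%) against 19.2% of all 32851 promoters of the table, the CCAAT box in 36 (75.0%) against 37.4%, and the E2F site in 7 (14.6%) against 2.26%. Matches of different kinds overlapped in 2 of the 48 promoters. Among the promoters of the genes called lower on the protein-free diet, 7 of 11 held a homology region, 8 of 11 a CCAAT box and 1 of 11 an E2F site, and among those of the measured genes that were not called 22, 27 and 6 of 36 did. Whether these shares differ was not tested. A match is a description of the sequence and no measurement of binding.

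Of 4 nucleotide supply genes, 2 were called lower. Rrm2 encodes the small, cycle-regulated subunit of ribonucleotide reductase and read 3.40, 3.41, 3.56, 3.57 and 3.64 in protein-free mice and 4.11, 4.37, 4.53, 4.80 and 4.86 in Control mice, -1.02 (SE 0.18, adjusted p = 0.0019). Its second probe set had -0.43 (adjusted p = 0.0119, under the fold minimum). Tk1, the thymidine kinase of S phase, read 2.84, 3.05, 3.28, 3.43 and 3.50 against 3.92, 4.09, 4.34, 4.39 and 4.49, -1.03 (SE 0.17, adjusted p = 0.00128). The large reductase subunit Rrm1 had -0.19 and thymidylate synthase Tyms -0.18, and neither was called.

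At the anaphase-promoting complex, 2 of 3 genes were called lower. Ube2c, the enzyme that attaches the first ubiquitins to cyclins, read 2.75, 2.84, 2.90, 3.01 and 3.12 against 3.39, 3.79, 4.10, 4.51 and 4.56, -1.15 (SE 0.16, adjusted p = 0.000131). Cdca3, which takes part in mitotic entry, read 3.24, 3.48, 3.53, 3.54 and 3.62 against 4.03, 4.22, 4.44, 4.57 and 4.89, -0.95 (SE 0.13, adjusted p = 0.000161). The activator Cdc20 had -0.27 and was not called.

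Kinase, checkpoint and spindle genes were mostly not called. Birc5, survivin, a subunit of the chromosomal passenger complex with Aurkb, was the only one of 9 kinase and checkpoint genes called in this comparison. It read 2.72, 2.73, 2.83, 2.85 and 2.88 on the protein-free diet and 3.28, 3.53, 3.58, 3.72 and 3.78 on the Control diet, -0.78 (SE 0.11, adjusted p = 0.000265). The kinases Aurka, Aurkb and Plk1 had -0.21, -0.14 and -0.15. Of 13 spindle and kinetochore genes, Nusap1 and Hmmr were called lower.

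Nusap1, which bundles spindle microtubules, read 3.22, 3.54, 3.72, 3.83 and 4.10 against 4.55, 4.61, 4.72, 4.94 and 5.22, -1.13 (SE 0.18, adjusted p = 0.000729), and its second probe set had -0.08. Hmmr, a spindle protein first known as a hyaluronan receptor, read 2.61, 2.82, 2.96, 3.00 and 3.13 against 3.24, 3.42, 3.48, 3.70 and 3.84, -0.63 (SE 0.16, adjusted p = 0.0375). Its 4 other probe sets ran from -0.24 to 0.04, none called. The call of Hmmr was lost in 9 of 19 alternatives (adjusted p 0.0265 to 0.125), among them the fits without Control replicate 1, 3 or 4 and without protein-free replicate 2, 3, 4 or 5. The kinetochore gene Cenpf had -0.51 (adjusted p = 0.0116), short of the fold minimum.

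None of the 4 G1 genes and none of the 10 replication genes was called on the protein-free diet, with group medians of -0.13 and -0.15. The 10 replication genes ran from -0.33 (Mcm6) to -0.04 (Cdt1), and Pcna, the sliding clamp of the replication fork, had -0.28. The 3 cytokinesis genes were not called either, from -0.37 (Anln) to 0.06 (Ect2). Whether the groups of genes differ from each other was not tested.

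Further genes of the cycle, listed beside the 55, were not called on the protein-free diet. This held for all 18 cell cycle inhibitors and quiescence genes (median 0.09), 24 G1 kinase, E2F and MYC factor genes (-0.09), 38 other replication genes (-0.11) and 46 other mitosis genes (-0.12). Among markers of other cells, 0 of 17 measured leukocyte markers were called, and their mean per array was 5.85 to 6.30 against 5.96 to 6.49 in Control mice. Of red blood cell precursors 3 of 6 markers were measured, and Hba-a1 (-0.85, adjusted p = 0.0301) and Alas2 (-1.21, adjusted p = 0.0031) were lower. The third measured, Epb42, had 0.06 and was not called. The mean of the 3 per array was 5.93 to 6.35 on the protein-free diet and 6.74 to 6.99 on the Control diet, without overlap. The collagen gene Col3a1 was lower too (-1.16, adjusted p = 0.00388), as 1 of 7 fibroblast and pericyte markers. The part of blood precursors in the fall of the cycle genes was not tested.

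**Figure D2:**
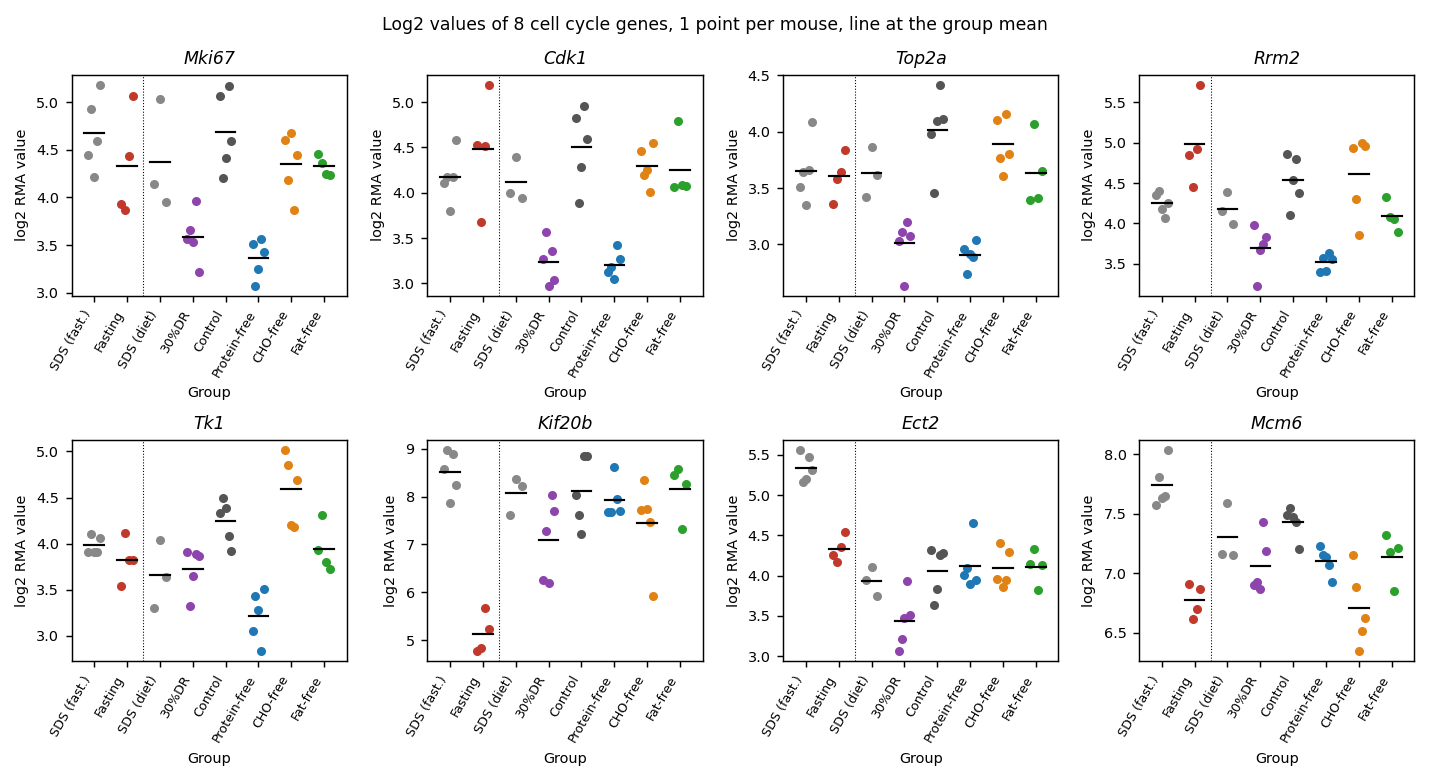
Log2 RMA values of 8 cell cycle genes in the 8 groups, 1 point per mouse with a line at the group mean, and a dotted line between the 2 separately normalised experiments. Within the second experiment, Mki67, Cdk1, Top2a, Rrm2 and Tk1 are lowest on average on the protein-free diet. Kif20b, Ect2 and Mcm6, picked as called with fasting, drop there, and the 4 fasted mice lie below all 5 of their chow-fed controls.

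Fasting was set against its own SDS chow. Of the 54 genes, 2 were called higher (Rrm2 and Anln) and 4 lower (Kif20b, Ect2, Mcm6 and Cenpe), 3.70% and 7.41% of the genes against 2.63% and 2.68% of all probe sets. Counted by probe set, 2 of 100 were higher, close to the share over all probe sets, and 5 were lower. The median over the 54 genes was 0.03, against 0.00 over all probe sets. None of the 8 measured mitotic cyclin and marker genes was called, with Mki67 at -0.35, Cdk1 at 0.31 and Ccnb2 at 0.42.

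Kif20b, a kinesin that acts late in cell division, had the largest change of all 54 genes in any of the 5 diets. It read 4.78, 4.84, 5.22 and 5.68 in the 4 fasted mice and 7.87, 8.24, 8.57, 8.88 and 8.98 in the 5 chow-fed mice. The log2 fold change was -3.38 (SE 0.24, adjusted p = 4.11e-06), a 10.4-fold lower signal, and the groups lay more than 2 log2 units apart. Its second probe set went from a mean of 3.13 to 2.93, a difference of -0.21 (adjusted p = 0.174), so 1 of 2 probe sets carried the fall. On the other diets the same probe set had -0.97 (2-week 30%DR), -0.67 (CHO-free), -0.19 (protein-free) and 0.05 (fat-free) against its own controls, none called.

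The promoter of Kif20b is shown beside those of Cdk1, Ccnb2 and Top2a because it lacks their CCAAT boxes. This lack is not particular to Kif20b. Birc5, Nusap1 and Tk1, called lower without protein, and Anln, called higher with fasting, had no CCAAT match either. It lies at chr19:34922108-34922407, plus strand, and its 2 matches are homology regions in tandem at 8 and 14.
Kif20b: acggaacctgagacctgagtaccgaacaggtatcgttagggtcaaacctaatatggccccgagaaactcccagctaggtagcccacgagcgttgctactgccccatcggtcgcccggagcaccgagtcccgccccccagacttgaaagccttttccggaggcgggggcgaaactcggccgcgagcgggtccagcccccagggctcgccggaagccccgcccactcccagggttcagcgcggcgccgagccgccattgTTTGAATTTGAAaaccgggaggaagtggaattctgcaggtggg

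Cytokinesis and replication genes made up most of the rest. Ect2, the exchange factor that switches on RhoA at the cleavage furrow, read 4.17, 4.25, 4.36 and 4.55 in fasted and 5.16, 5.20, 5.31, 5.47 and 5.56 in chow-fed mice, -1.01 (SE 0.10, adjusted p = 4.43e-05). Anln, anillin, the scaffold of the contractile ring, read 4.54, 4.61, 4.78 and 5.13 against 4.02, 4.03, 4.03, 4.07 and 4.10, 0.72 (SE 0.10, adjusted p = 0.000564), with 0.05 on its second probe set. The 2 partners at the cleavage furrow therefore moved in opposite directions, each without overlap between the groups. Genes called with fasting were picked by this same comparison, so a lack of overlap in them is not independent of that choice. Mcm6, a subunit of the replicative helicase, read 6.62, 6.70, 6.87 and 6.91 against 7.57, 7.63, 7.65, 7.81 and 8.04, -0.97 (SE 0.10, adjusted p = 5.87e-05). The other helicase subunits Mcm2, Mcm3, Mcm4, Mcm5 and Mcm7 had 0.14, -0.09, -0.04, -0.39 and -0.03, none called.

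Rrm2 read 4.46, 4.84, 4.92 and 5.72 in fasted mice and 4.07, 4.18, 4.26, 4.35 and 4.40 in chow-fed mice, 0.73 (SE 0.20, adjusted p = 0.0215), and its second probe set had 0.09. All 4 fasted mice lay above all 5 controls, with 1 of them (replicate 4) at 5.72. Without that mouse the log2 fold change was 0.49, under the fold minimum, and without chow-fed replicate 3 the adjusted p was 0.0501. Cenpe, the motor that carries chromosomes to the spindle equator, read 4.51, 4.70, 4.89 and 4.95 against 5.13, 5.16, 5.40, 5.46 and 5.94, -0.65 (SE 0.16, adjusted p = 0.0117), with 0.00 on its second probe set. It fell under the fold minimum without chow-fed replicate 2 (-0.52) or fasted replicate 2 (-0.57). Ccnd1, cyclin D1, was called lower on 1 of its 3 probe sets (-0.59) and had -0.42 on the one that stands for it here, a gene singled out after its values were seen.

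A few inhibitors of the cycle rose with fasting. Cdkn1a, the CDK inhibitor p21, had 1.24 (SE 0.15, adjusted p = 0.000147), Gadd45a 0.91 (SE 0.14, adjusted p = 0.00095) and Btg2 0.91 (SE 0.17, adjusted p = 0.00279), 3 of 18 inhibitors and quiescence genes, with a list median of 0.24. The growth factor-responsive gene Myc was higher by 0.75 (adjusted p = 0.00174), the only called gene of 24 G1 factors. Of 46 other mitosis genes, the kinetochore gene Spc25 was higher (1.27, adjusted p = 2.22e-05) and the condensin gene Smc2 lower (-0.84, adjusted p = 0.00118), and none of 38 other replication genes was called. Leukocyte markers moved in the same comparison: 8 of 17 were lower, and their mean per array was 5.92 to 6.09 in fasted mice and 6.34 to 6.69 in controls. Hba-a1 (-0.75) and Alas2 (-1.01) were lower as on the protein-free diet, and Epb42 had 0.01 and was not called. The mean of the 3 measured precursor markers was 6.53 to 6.78 against 7.05 to 7.68. Of 7 fibroblast and pericyte markers, Col3a1 was lower (-2.23) and Pdgfra higher (0.75). The injured tubule marker Havcr1 and the tubule marker Slc5a2 were lower as well. The part of all these markers in the values of the cycle genes was not tested.

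The protein-free and fasting effects were set against each other in 1 fit of all 36 arrays, since they share no control mice. Taking the fasting effect minus the protein-free effect, 12 of the 54 genes were called higher and 3 lower, 22.2% and 5.56% against 1.08% and 1.25% of all probe sets. Counted by probe set, 12 of 100 were higher and 3 lower. Rrm2 had the largest positive difference, 1.75 (SE 0.27, adjusted p = 9.00e-05), since it rose with fasting and fell without protein. Cdk1 differed by 1.61 (SE 0.29, adjusted p = 0.000621), Pbk by 1.56 (SE 0.30, adjusted p = 0.00137) and Nusap1 by 1.42 (SE 0.26, adjusted p = 0.000608). The other 8 called higher were Ccnb2, Cdca3, Ccna2, Anln, Ube2c, Top2a, Birc5 and Tk1, with differences from 0.87 to 1.19. Mki67 had -0.35 with fasting (not called) and -1.33 without protein, and the difference of 0.98 was not called.

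In the other direction, Kif20b differed by -3.19 (SE 0.54, adjusted p = 0.000288), Ect2 by -1.07 (SE 0.22, adjusted p = 0.00344) and Mcm6 by -0.64 (SE 0.18, adjusted p = 0.047). The call of Mcm6 was lost in 15 of 28 alternatives and that of Tk1 in 11 of 28, all of them fits without 1 mouse, and that of Ccna2 in 3. Rrm2 was the 1 gene called under both diets, 1 of the 6 genes called with fasting and 1 of the 13 called without protein. Of the other cycle genes, 4 of 46 mitosis genes (Spc25 at 1.60, Ckap2 at 1.03, Shcbp1 at 0.74 and Mad2l1 at 0.71) and 3 of 18 inhibitors (Cdkn1a at 1.52, Gadd45a at 1.14 and Cdkn2d at 0.76) were called higher in this difference and none lower. Of the cell markers, C1qc (-0.59) and Col3a1 (-1.07) were lower, and no precursor marker was called. The 2 effects also have different control diets, SDS chow for fasting and the Control diet for protein-free. Between these controls, Pbk (0.73), Ube2c (0.63) and Tk1 (0.59) were higher on the Control diet, none called, and 13 of the 54 genes were below zero. Hybridization time, control diet and diet effect cannot be told apart in a comparison across the 2 experiments.

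**Figure D3:**
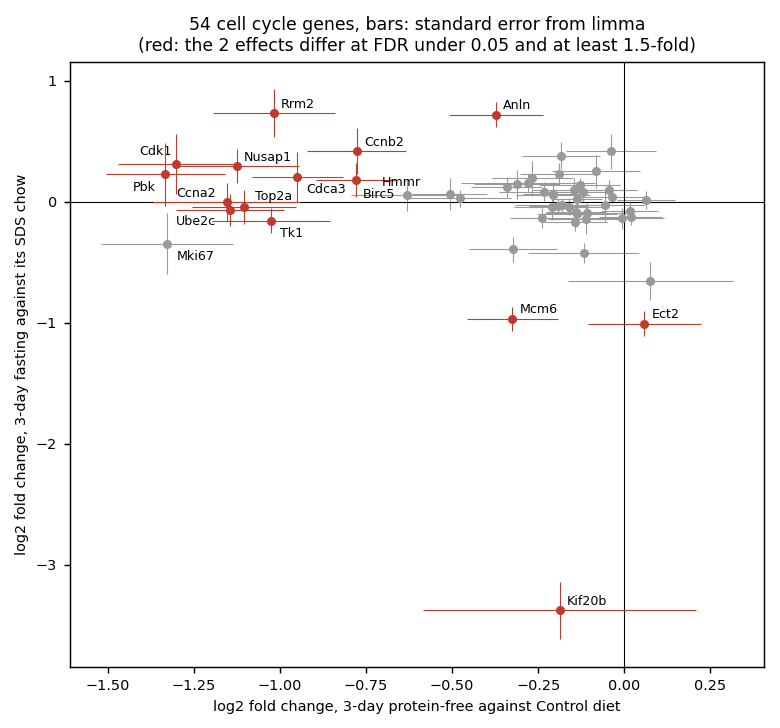
Log2 fold change on fasting (vertical) against that on the protein-free diet (horizontal) for the 54 genes, with standard errors (limma) as bars and red points where the 2 effects differed. The 12 upper red points lie left of zero at fasting effects between -0.16 and 0.73, and Kif20b stands alone at -3.38.

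The 2-week 30%DR called 1 of the 54 genes lower and 0 higher. That was 1.85% of the genes, and 1 of their 100 probe sets, against 0.45% of all probe sets called lower (0.47% were called higher). That gene was Cdk1, which read 2.98, 3.03, 3.26, 3.36 and 3.57 in the 5 restricted mice and 3.94, 4.00 and 4.40 in the 3 chow-fed mice, -0.87 (SE 0.20, adjusted p = 0.0189). The protein-free mice of the same experiment, at 3.05 to 3.42, lay within the range of the restricted mice for Cdk1. The call was lost without chow-fed replicate 2 (adjusted p = 0.185) or restricted replicate 3 (adjusted p = 0.0522). Of the 54 genes 44 were below zero, with a median of -0.17 against 0.00 over all probe sets. The 8 mitotic cyclin and marker genes had a median of -0.63, with Mki67 at -0.79 (adjusted p = 0.0733), Pbk at -0.66 (adjusted p = 0.0992) and Top2a at -0.62 (adjusted p = 0.0695). At an unadjusted p under 0.05, 17 of the 54 were lower and 2 higher, against 5.79% and 6.62% of all probe sets.

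With the 3 chow-fed and 5 Control mice joined into 1 control group, 9 genes were called lower on 30%DR (Cdk1, Rrm2, Ccna2, Ccnb2, Mki67, Top2a, Pbk, Ube2c and Cdca3). In that fit 0.922% of all probe sets were called lower and 1.08% higher. It adds control mice and also changes their diet and possibly their feeding cohort, and these cannot be told apart. The protein-free count with the same joined controls was 12, Hmmr being lost (0.27% of all probe sets lower, 0.383% higher). In the inhibitor list Cdkn1a was lower on 30%DR (-0.83, adjusted p = 0.0246), against its rise with fasting. No leukocyte, red blood cell precursor or fibroblast marker was called.

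The 13 genes called lower without protein had a median of -0.48 on 30%DR, and 12 of them were below zero. Setting the protein-free effect against the 30%DR effect called none of the 54 genes, and over the whole array 0.0177% of probe sets were higher and 0.00443% lower. By limma 1 gene was higher and 9 lower at an unadjusted p under 0.05 in that difference (3.54% and 2.61% of all probe sets), and no single gene was shown to differ between the 2 effects. The lowest difference among the 54 genes was -1.10, for Tk1, which had 0.07 on 30%DR and -1.03 without protein.

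The CHO-free diet called 2 genes lower and 0 higher, 3.70% against 2.25% of all probe sets called lower (1.35% were called higher). Counted by probe set, 2 of 100 were lower, close to the share over all probe sets. The 13 genes called lower without protein had a median of -0.24 on the CHO-free diet. Of these, 11 were below zero, and 5 had an unadjusted p under 0.05 by limma. The Control mice are shared with the protein-free comparison, so these signs are not independent. Mcm6 read 6.35, 6.51, 6.62, 6.88 and 7.16 in CHO-free mice and 7.20, 7.43, 7.48, 7.49 and 7.55 in Control mice, -0.72 (SE 0.13, adjusted p = 0.000891), with all 5 CHO-free mice below all 5 Control mice. Mcm6 was picked by this same comparison. Nusap1 read 3.78, 3.81, 4.13, 4.54 and 4.85 against 4.55, 4.61, 4.72, 4.94 and 5.22, -0.59 (SE 0.18, adjusted p = 0.0352), with overlap between the groups. Nusap1 lost its call in 10 of 21 alternatives, and both genes lost theirs without CHO-free replicates 3 and 4, the arrays with the highest Gapdh gap on that diet, where Mcm6 had -0.54 (adjusted p = 0.0348) and Nusap1 -0.41 (adjusted p = 0.347). Cdkn1a was higher on the CHO-free diet (1.05, adjusted p = 0.000233) and the pocket protein gene Rbl2 lower (-0.75, adjusted p = 0.00391). Of 17 leukocyte markers, 3 were lower (Tyrobp, C1qa and C1qb).

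On the fat-free diet none of the 54 genes was called, and 0% of all probe sets were. At an unadjusted p under 0.05 limma gave 8 genes lower and 0 higher, against 1.7% and 2.93% of all probe sets. The 13 genes called without protein were all below zero on the fat-free diet, from -0.54 (Nusap1) to -0.26 (Cdk1). The fat-free and protein-free comparisons share the Control mice, so that these signs are not independent.

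The 2 control diets were compared as well. No gene was called between the Control diet and SDS chow (0.0465% of all probe sets were, all lower), while 9 of the 54 were higher and 0 lower at an unadjusted p under 0.05, against 2.05% and 4.29% of all probe sets. The 13 genes were all above zero in this comparison, from 0.15 (Hmmr) to 0.73 (Pbk), with a median of 0.39. Against the 3 chow-fed mice of the same experiment, all 5 protein-free mice were lower in 8 of the 13 genes and overlapped in Tk1, Ccnb2, Birc5, Nusap1 and Hmmr, while 4.07% of all probe sets had all 5 lower. The 13 were picked as low in these protein-free mice against these Control mice, so neither the signs nor this count is independent of that choice.

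The macronutrient-free diets were then set directly against each other. The Control mice do not enter these differences but do enter the shared estimate of the spread. The protein-free and CHO-free diets differ in both protein and carbohydrate, and the part of each was not tested. Between the protein-free and CHO-free diets 9 genes were called lower without protein and 0 higher, 16.7% against 1.1% of all probe sets called lower (1.34% were called higher). Counted by probe set, 9 of 100 were lower. Tk1 had the largest difference, with 2.84, 3.05, 3.28, 3.43 and 3.50 on the protein-free diet and 4.18, 4.20, 4.69, 4.85 and 5.02 on the CHO-free diet, -1.37 (SE 0.17, adjusted p = 8.06e-06). Rrm2, at 3.85, 4.30, 4.93, 4.96 and 4.99 on the CHO-free diet, differed by -1.09 (SE 0.18, adjusted p = 0.000235). Cdk1, at 4.01, 4.19, 4.25, 4.46 and 4.54 there, differed by -1.08 (SE 0.17, adjusted p = 0.000151). In these 3 genes, picked as called in this same comparison, the groups did not overlap.

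Mki67 had -0.99, Top2a -0.98, Pbk -0.84, Ccna2 -0.81 and Ube2c -0.62 in the same comparison, all called. Nek2, a kinase of the centrosome that was not called against the Control diet, read 3.46, 3.78, 3.87, 3.96 and 4.10 without protein and 4.16, 4.33, 4.43, 4.44 and 4.97 without carbohydrate, -0.63 (SE 0.13, adjusted p = 0.00277). Against the Control mean the CHO-free mice were higher in Nek2 by 0.40 (adjusted p = 0.0494) and the protein-free mice had -0.23. Nek2 fell under the fold minimum without protein-free replicate 3 (-0.54) or CHO-free replicate 5 (-0.51), as did Ube2c without protein-free replicate 1 (-0.58), and Ccna2 had adjusted p = 0.0542 without protein-free replicate 4. Without CHO-free replicates 3 and 4 the count of lower genes was 14. Of the other cycle genes Cdkn1a (-1.33), Spc25 (-0.97) and the CDK subunit gene Cks1b (-0.68) were lower without protein and Rbl2 (0.67) higher. Among markers of other cells, Alas2 (-0.98), Col3a1 (-0.96) and the collecting duct gene Aqp2 (-0.90) were lower, and Tyrobp (0.60), Cd52 (0.71) and the endothelial gene Tek (0.62) higher. The 17 leukocyte markers had a mean per array of 5.72 to 5.85 on the CHO-free diet and the 3 precursor markers 6.50 to 6.86. Their part in these differences was not tested.

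Between the protein-free and fat-free diets 4 genes were called lower without protein and 0 higher, 7.41% against 0.0975% of all probe sets called lower (0.144% were called higher). Counted by probe set, 4 of 100 were lower. Cdk1 read 4.06, 4.08, 4.09 and 4.79 in the 4 fat-free mice, -1.05 (SE 0.18, adjusted p = 0.00406). Mki67 read 4.24, 4.25, 4.36 and 4.46, -0.96 (SE 0.20, adjusted p = 0.0277). Pbk read 4.33, 4.47, 4.63 and 4.85, -0.89 (SE 0.18, adjusted p = 0.0221). Top2a read 3.39, 3.41, 3.65 and 4.07, -0.72 (SE 0.16, adjusted p = 0.0373). All 5 protein-free mice lay below all 4 fat-free mice in each of these genes, which were picked by this same comparison. The share of all probe sets separated in this way was not counted. Leaving out 1 mouse left 1 to 3 of the 4 calls whichever of the 9 mice it was, and Cdk1 was called in every one of these 9 fits. Alas2 (-1.04, adjusted p = 0.0462) and Col3a1 (-1.15, adjusted p = 0.0195) were lower without protein in this comparison too, and the 3 precursor markers had a mean of 6.68 to 6.97 per fat-free array. No leukocyte or endothelial marker and no other cycle gene was called.

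**Figure D4:**
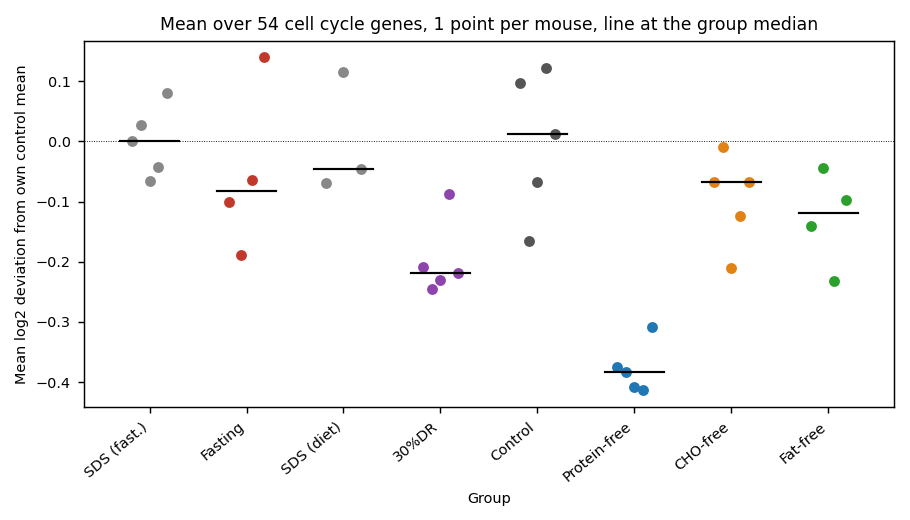
Mean over the 54 genes of each mouse's log2 deviation from the mean of its own control group, 1 point per mouse with a line at the group median. The 5 protein-free mice sit between -0.41 and -0.31 from the Control diet mean, below every other mouse in this measure. The 5 mice on 2-week 30%DR sit between -0.25 and -0.09 from the SDS chow mean. The Control diet lay above SDS chow by a median of 0.12 over the 54 genes, so these positions depend on the reference.

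Per mouse, the mean deviation over all 54 genes was -0.41 to -0.31 without protein and -0.17 to 0.12 in Control mice. Over the 13 called genes alone it was -1.13 to -0.95 without protein, a range that the choice of these genes sets. The 30%DR mice were at -0.25 to -0.09 over the 54 genes, the fasted mice at -0.19 to 0.14, the CHO-free mice at -0.21 to -0.01 and the fat-free mice at -0.23 to -0.04. Each range is from the group's own control, and the Control diet lay above SDS chow by a median of 0.12. How the protein-free and 30%DR mice rank from a common reference was not tested.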

How the data were processed

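Kidney RNA of 36 mice was hybridized to Affymetrix HT MG-430 PM arrays. The deposited values are log2 signals that the authors obtained by RMA with outlying arrays left out, separately for the fasting experiment (9 arrays) and the others (27 arrays). Probe sets were named from GEO's platform annotation: 28898 had 1 gene symbol, 551 several and 15692 none. Each experiment was fitted by itself with limma 3.58.1 in R 4.3.3 (lmFit, contrasts.fit, eBayes), with p-values adjusted by Benjamini-Hochberg over 45141 probe sets. Calls required FDR under 0.05 together with a 1.5-fold change or more. The difference between the fasting and protein-free effects used all 36 arrays. The fit was tested on simulated data with known changes. The Gapdh gap was compared by a 2-sided exact permutation test. Groups came from the diet labels, and the 2 sets of SDS chow mice were told apart by the prefix of their animal labels. The 55 genes and all other lists were chosen with earlier results of these data known. Genes were named when called, and values per mouse were given for the 2 largest changes per role in comparisons with many calls and for every called gene in comparisons with few, by which Cdk1 and Top2a also qualified. The number of arrays limits the precision. Alternatives were other variance priors, normalizations, filters, probe set choices, covariates and controls, and fits without 1 mouse.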

Additional observations from a re-analysis of the deposited data

Results flagged for a closer look

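Single mice stood far from their group by Dixon's criterion in 10 of 119 gene and group sets of 4 or 5 mice, where chance gives about 1 in 20. Fat-free replicate 2 was at 4.79 for Cdk1 (others 4.06 to 4.09) and at 4.41 for Nek2 (others 3.96 to 4.00). Fasted replicate 4 was at 4.60 for Nek2 (others 4.37 to 4.40) and at 4.67 for Hmmr (others 4.16 to 4.21). Fasted replicate 2 was at 4.48 for Nusap1 (others 5.14 to 5.25). Protein-free replicate 4 was at 4.75 for Cenpe (others 5.51 to 5.79) and at 4.66 for Ect2 (others 3.90 to 4.10), and protein-free replicate 3 was at 8.62 for Kif20b (others 7.67 to 7.94). CHO-free replicate 1 was at 2.96 for Birc5 (others 3.37 to 3.52), and chow-fed replicate 5 of the fasting experiment at 3.73 for Ube2c (others 3.37 to 3.39).

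Effects that differed between diets by a test of the difference itself were also set aside. The protein-free diet was below the CHO-free diet in Tk1 (-1.37), Rrm2 (-1.09), Cdk1 (-1.08), Mki67 (-0.99), Top2a (-0.98), Pbk (-0.84), Ccna2 (-0.81), Nek2 (-0.63) and Ube2c (-0.62). It was below the fat-free diet in Cdk1 (-1.05), Mki67 (-0.96), Pbk (-0.89) and Top2a (-0.72). The fasting effect minus the protein-free effect was positive in Rrm2 (1.75), Cdk1 (1.61), Pbk (1.56), Nusap1 (1.42), Ccnb2 (1.19), Cdca3 (1.15), Ccna2 (1.15), Anln (1.09), Ube2c (1.07), Top2a (1.06), Birc5 (0.96) and Tk1 (0.87). It was negative in Kif20b (-3.19), Ect2 (-1.07) and Mcm6 (-0.64).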

How the results depend on the processing

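No paired analysis was possible because the replicate numbers used here only name mice in order of deposit, and the labels give each mouse an animal identifier that no other mouse shares. Over 50 gene-level differences and 1081 alternative values, 1001 kept their direction and call, 80 kept their direction and lost the call, and 0 reversed. The count of called genes moved by over 1.5 times in the following fits, and the cause was not tested unless given. With probe sets above the median signal only, 2 genes were called on 30%DR and 8 on the protein-free diet, where 23 of the 54 genes were tested. With array weights 3 were called on 30%DR and 1 on the CHO-free diet. With joined control groups 9 were called on 30%DR and 1 on the CHO-free diet, and a fit of the CHO-free and Control groups alone gave 1. Without a fold minimum 7 were called on the CHO-free diet and 18 between the protein-free and CHO-free diets. With the Gapdh gap as covariate the last count was 15. Without CHO-free replicates 3 and 4, an alternative added after seeing the data, 0 were called on the CHO-free diet and 14 between the protein-free and CHO-free diets. Leaving out 1 mouse at a time gave 5 to 6 called genes for fasting, 0 to 1 for 30%DR, 12 to 13 for the protein-free diet, 1 to 4 for the CHO-free diet, 9 to 13 between protein-free and CHO-free, 1 to 3 between protein-free and fat-free, and 12 to 15 for the fasting effect minus the protein-free effect. On the CHO-free diet 4 genes were called without Control replicate 2, and 1 without Control replicate 4 or 5 or CHO-free replicate 1, 3 or 4. The fat-free and control diet comparisons and the protein-free effect minus the 30%DR effect had 0 calls in every one of these fits. Dim probe sets respond less than in proportion to RNA, so folds of weakly detected genes may be understated, and no detection calls were used here.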
